A study of Mus musculus with 11 samples.

Results

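Enzymes of ketone body and acetate use were followed in the tibialis anterior (TA) of *mdx* mice and controls. Members were the 5 genes *Bdh1*, *Oxct1*, *Acat1*, *Acss1* and *Acss2*, picked out of the 21759 gene symbols of the deposited table by an exact match of the symbol. Each of the 5 symbols belonged to 1 probe set, so the rule of taking the brightest probe set of a gene had no choice to make. All 5 passed the filter on low signal, set at a mean signal of 30 in the brightest group, which left 14494 of 28350 probe sets.

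TA muscles of 11 mice gave the RNA, 3 from C57, 4 from *mdx* without treatment and 4 from *mdx* given Pip6e-PMO, with a separate Mouse Gene ST 1.1 array for each. All mice are labelled strain C57/B10 and were harvested at 14 weeks of age. The C57 mice are wild-type, and both *mdx* groups carry the nonsense mutation of *Dmd*, which removes full-length dystrophin. Treated mice received 1 tail-vein injection of Pip6e-PMO in saline, 12.5 mg/kg, at 12 weeks of age, and the other mice are labelled as having had no treatment. Pip6e-PMO is a cell-penetrating peptide joined to a morpholino oligonucleotide that makes splicing skip the mutated exon, so that a shortened dystrophin can be made. The controls were not injected with vehicle according to the labels, so injection and oligonucleotide cannot be told apart.

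Ketone bodies are made in the liver from fatty acids and are burned by heart, brain and skeletal muscle. In the mitochondria of a muscle fibre, 3-hydroxybutyrate is oxidized to acetoacetate, acetoacetate receives coenzyme A from succinyl-CoA, and the resulting acetoacetyl-CoA is split into acetyl-CoA for the citrate cycle. Acetate enters the same pool by a shorter route, through synthetases that join it directly to coenzyme A, one in the mitochondria and another in the cytosol and nucleus.

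The arrays were similar in overall brightness, with a median signal of 27.5 to 28.6 and 48.2 to 49.2% of probe sets at a signal of 30 or more. Pip6e-PMO mouse 2 stood apart, with a scaled median absolute deviation of 0.285 from its group means in log2 signal over the tested probe sets, against 0.115 to 0.193 in the other 10 mice. The *Dmd* probe set had a log2 signal of 5.77 to 5.87 in C57 mice, 4.60 to 5.82 in untreated *mdx* mice and 5.51 to 6.34 after treatment, and since the mutation leaves a transcript in place, these overlapping values do little to check the labels. Fast fibre genes marked the tissue as labelled: the summed signal of 11 genes such as *Myh4* and *Ckm* lay between 73649 and 78459 in every mouse.

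Of the 5 enzymes, 3 fell in *mdx* TA and the other 2 did not pass the test. *Bdh1* fell to 28.2% of its C57 level, *Acss1* to 49.0% and *Acss2* to 72.5%, with limma's adjusted p of 0.00137, 0.00132 and 0.0389. The methods' t-test, adjusted in the same way, called *Acss1* (0.0372) but neither *Bdh1* (0.0504) nor *Acss2* (0.128). Over all tested probe sets, 4.96% were called lower in this comparison at an adjusted p under 0.05 (Benjamini-Hochberg). The *mdx* mice lay below every C57 mouse for the same 3 genes, against 11.3% of probe sets. The study itself had singled out *Bdh1* and *Acss1* from these arrays together with its protein data, so their part in the count is not independent evidence. RNA of whole muscle was measured, so fewer cells of a type and less RNA in each cell cannot be told apart. The 11 fast fibre genes differed between *mdx* and C57 by −0.03 to 0.19 in log2 signal, with a median of −0.0042. They are very bright, with a sum of at least 73649 in every mouse where the array median was at most 28.6. Whether signals so bright could show a change in fibre content was not tested. Macrophage markers were called higher for 11 of 12 genes and regenerating fibre markers for 7 of 8. The part of any of these in the falls was not tested.

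**Figure D1:**
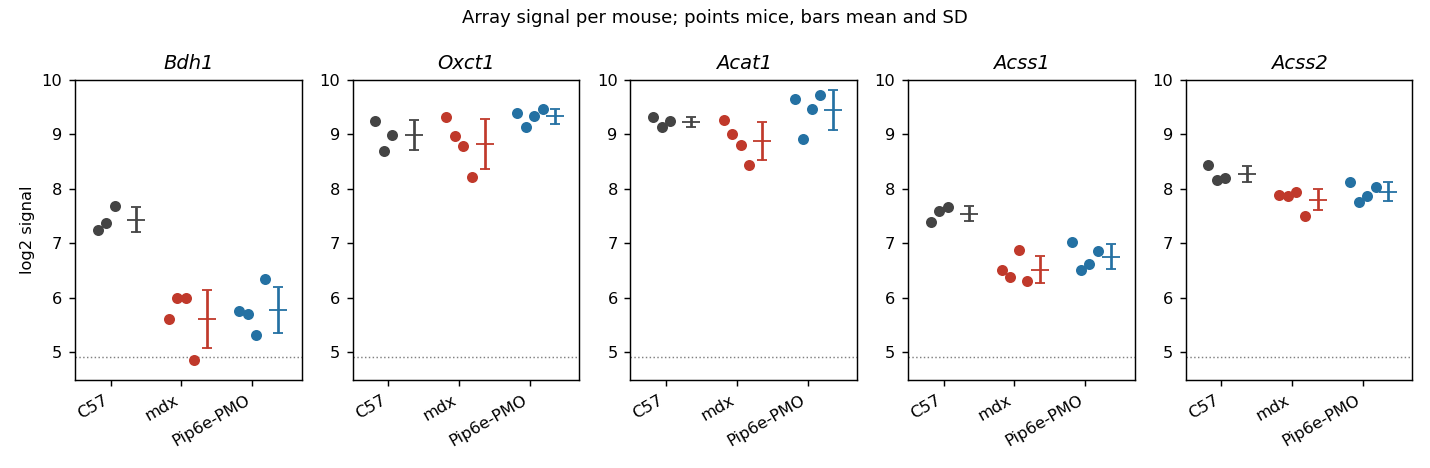
Log2 array signal of each enzyme gene in each mouse, with group mean and SD beside the points (3 C57, 4 *mdx* and 4 Pip6e-PMO-treated mice); the dotted line marks a signal of 30. For *Bdh1*, *Acss1* and *Acss2* the *mdx* points lie below all C57 points. The treated points also lie below all C57 points, for *Acss2* by as little as 0.04, and the highest treated point of each gene is above its *mdx* range.

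*Bdh1* encodes 3-hydroxybutyrate dehydrogenase of the inner mitochondrial membrane, which takes the opening step of ketone body oxidation. Its log2 signal was 7.25, 7.37 and 7.69 in the 3 C57 mice, 5.61, 5.99, 5.99 and 4.86 in the 4 *mdx* mice, and 5.76, 5.71, 5.32 and 6.34 in the 4 treated mice. Every dystrophic mouse, treated or not, was below the lowest C57 mouse by a wide margin, while the *mdx* and treated ranges overlapped. From a C57 mean of 7.44 ± 0.23 (SD, n = 3) to an *mdx* mean of 5.61 ± 0.53 (SD, n = 4), *Bdh1* fell by 1.82 on the log2 scale (SE 0.28, 95% confidence interval −2.43 to −1.22), a 3.54-fold lower signal. Only 11 of the 14494 tested probe sets had a more negative difference. The mean signal in *mdx*, 51.2, was close to the minimum of 30, and *mdx* mouse 4 was below it, so array background limits how large a fall could be read. In treated mice the mean was 5.78 ± 0.42 (SD, n = 4), 0.17 above *mdx* (95% confidence interval −0.39 to 0.73, limma's adjusted p = 0.688). Against C57 it was lower by 3.15-fold, with limma's adjusted p of 0.00209. The sign of the treated difference rested on single mice, being −0.081 without *mdx* mouse 4 and −0.016 without treated mouse 4.

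The *Bdh1* probe set, 10434934, has 29 probes on the plus strand of chromosome 16 between 31422380 and 31457585 in the deposited positions, which name no genome build and were not set against the coordinates that follow. RefSeq's mouse annotation on GRCm38.p6 lists 2 start sites for *Bdh1*, and the 250 bases before each are shown because the gene had the largest change of the 5. The upstream stretch of the first is chr16:31422047-31422296 and of the second chr16:31428503-31428752, both on the plus strand.
Bdh1 start 1: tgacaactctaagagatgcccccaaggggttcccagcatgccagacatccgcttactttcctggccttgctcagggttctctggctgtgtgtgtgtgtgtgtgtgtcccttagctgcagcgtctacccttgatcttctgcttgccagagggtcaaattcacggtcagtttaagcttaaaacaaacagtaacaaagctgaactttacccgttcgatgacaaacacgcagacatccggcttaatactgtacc
Bdh1 start 2: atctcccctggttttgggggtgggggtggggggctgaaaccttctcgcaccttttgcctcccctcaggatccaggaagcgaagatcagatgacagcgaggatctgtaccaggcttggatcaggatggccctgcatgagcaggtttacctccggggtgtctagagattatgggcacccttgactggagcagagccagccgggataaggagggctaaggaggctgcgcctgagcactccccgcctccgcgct
The stretches differ in composition, with 49.6% G and C before the first start and 60.8% before the second. In windows of 300 bases, from 250 before to 50 after a start, both strands were searched for the E-box CACGTG, the D-boxes TTATGTAA and TTACGTAA, the estrogen-related receptor motif TNAAGGTCA, the sterol response motif TCACNCCAC, the GC box GGGCGG and DR1, the direct repeat bound by PPAR. Of 32851 mouse promoter windows, 7.15% held the E-box, 0.938% and 0.119% the D-boxes, 1.28% the estrogen-related receptor motif, 1.24% the sterol response motif, 35.7% the GC box and 0.0396% DR1. Neither *Bdh1* stretch above has a match in capitals, and the only match in either window was 1 GC box after the second start.

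*Oxct1* encodes succinyl-CoA:3-ketoacid CoA transferase, the enzyme that activates acetoacetate and that the liver lacks. Its log2 signal was 9.25, 8.70 and 8.99 in C57, 9.32, 8.97, 8.79 and 8.22 in *mdx*, and 9.39, 9.14, 9.34 and 9.46 in treated mice. The *mdx* mice straddled the C57 values, and the treated mice lay close together near the top of the whole range. C57 mice averaged 8.98 ± 0.28 (SD, n = 3) and *mdx* mice 8.82 ± 0.46 (SD, n = 4), a difference of −0.16 (95% confidence interval −0.62 to 0.31, limma's adjusted p = 0.731). In treated mice it was 9.33 ± 0.14 (SD, n = 4), 0.51 above *mdx* (95% confidence interval 0.07 to 0.94). The unadjusted p from limma was 0.0252 and the adjusted p 0.109, which does not pass. Without *mdx* mouse 4 the *mdx* difference from C57 was 0.047 and the treated difference from *mdx* 0.31, and without *mdx* mouse 1 the treated difference passed, at 0.67 with limma's adjusted p of 0.0465. The probe set, 10422608, has 38 probes on the plus strand of chromosome 15 between 3976428 and 4105341.

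*Acat1* encodes mitochondrial acetoacetyl-CoA thiolase, which splits acetoacetyl-CoA into acetyl-CoA and also serves isoleucine breakdown. Its log2 signal was 9.31, 9.13 and 9.25 in C57, 9.27, 9.0, 8.80 and 8.43 in *mdx*, and 9.65, 8.91, 9.47 and 9.72 in treated mice. The C57 mice were tightly grouped with *mdx* mostly below them, and 3 treated mice were above every other mouse while treated mouse 2 was among the *mdx* values. C57 mice averaged 9.23 ± 0.09 (SD, n = 3), *mdx* mice 8.88 ± 0.35 (SD, n = 4) and treated mice 9.44 ± 0.37 (SD, n = 4). Neither the difference of *mdx* from C57, −0.35 (95% confidence interval −0.81 to 0.10, limma's adjusted p = 0.333), nor that of treated from *mdx*, 0.56 (95% confidence interval 0.14 to 0.98, unadjusted p = 0.0133, adjusted p = 0.0764), passed the test. Without treated mouse 2, a choice made on its own measurements, the treated difference was 0.74 with limma's adjusted p of 0.00972, and without *mdx* mouse 1 it was 0.69 with 0.0494. The probe set, 10593591, has 26 probes on the minus strand of chromosome 9 between 53388627 and 53418455, and no promoter of *Acat1* was in the RefSeq table used.

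*Acss1* encodes the mitochondrial acetyl-CoA synthetase, which lets muscle oxidize acetate. Its log2 signal was 7.39, 7.59 and 7.66 in C57, 6.51, 6.38, 6.87 and 6.31 in *mdx*, and 7.03, 6.51, 6.62 and 6.86 in treated mice. All 8 dystrophic mice were below the lowest C57 mouse, and the treated values were spread over and just above the *mdx* range. The mean fell from 7.55 ± 0.14 (SD, n = 3) in C57 to 6.52 ± 0.25 (SD, n = 4) in *mdx*, a difference of −1.03 (SE 0.16, 95% confidence interval −1.37 to −0.69), or 2.04-fold. It was 50th from the lowest of all tested differences. At 6.76 ± 0.23 (SD, n = 4), treated mice were 0.24 above *mdx* (95% confidence interval −0.08 to 0.55, limma's adjusted p = 0.283) and remained 1.73-fold below C57 (limma's adjusted p = 0.00469).

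*Acss2* encodes the synthetase of cytosol and nucleus, whose acetyl-CoA goes to lipid synthesis and histone acetylation and which is a target of SREBP. Its log2 signal was 8.44, 8.17 and 8.19 in C57, 7.89, 7.87, 7.94 and 7.51 in *mdx*, and 8.13, 7.76, 7.87 and 8.04 in treated mice. The groups came close to each other, the highest treated mouse being 0.04 below the lowest C57 mouse. C57 mice averaged 8.27 ± 0.15 (SD, n = 3) and *mdx* mice 7.80 ± 0.20 (SD, n = 4), a fall of 0.46 on the log2 scale (SE 0.13, 95% confidence interval −0.75 to −0.18), or 1.38-fold. In treated mice it was 7.95 ± 0.17 (SD, n = 4), 0.15 above *mdx* (95% confidence interval −0.12 to 0.41, limma's adjusted p = 0.432). The call in *mdx* was the weakest of the 3. It was lost when any of the 3 C57 mice, *mdx* mice 1, 2 or 4, or treated mice 3 or 4 was left out, with limma's adjusted p between 0.0506 and 0.143.

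The upstream 250 bases of both synthetases are shown because both fell in *mdx* and encode enzymes of the same reaction in different compartments. In the sequences, capitals mark GC boxes (GGGCGG, or CCGCCC on the other strand). That of *Acss1* is chr2:150668241-150668490 on the minus strand and that of *Acss2* chr2:155517793-155518042 on the plus strand of GRCm38.p6, from RefSeq.
Acss1: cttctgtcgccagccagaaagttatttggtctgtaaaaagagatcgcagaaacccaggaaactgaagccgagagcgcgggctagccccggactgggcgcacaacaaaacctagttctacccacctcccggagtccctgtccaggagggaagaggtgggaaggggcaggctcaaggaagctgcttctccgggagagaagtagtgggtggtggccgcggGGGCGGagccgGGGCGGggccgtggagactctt
Acss2: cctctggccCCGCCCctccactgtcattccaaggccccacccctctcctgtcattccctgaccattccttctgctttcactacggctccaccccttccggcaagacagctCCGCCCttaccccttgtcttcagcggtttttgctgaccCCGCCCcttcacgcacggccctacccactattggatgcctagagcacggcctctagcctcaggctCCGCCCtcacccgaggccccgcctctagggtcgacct
*Acss1* has 2 GC boxes, beginning 33 and 22 bases before the start, and *Acss2* has 4 before the start and 1 after it. They are rich in G and C, 61.6% and 64%, and the *Oxct1* stretch, with 52%, held no GC box. None of the other motifs occurred in the windows of the 4 genes with a promoter in the table. The probe sets in the deposited positions are 10488482 for *Acss1*, 28 probes on the minus strand of chromosome 2 between 150443847 and 150493981, and 10477649 for *Acss2*, 45 probes on the plus strand of chromosome 2 between 155342695 and 155411460.

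After Pip6e-PMO, 0 of the 5 genes changed from *mdx* by limma at an adjusted p under 0.05, where 11.1% of all tested probe sets were called in either direction and 7.26% rose. At an unadjusted p under 0.05 the count was 2, *Oxct1* and *Acat1*, both higher, against 18.5% of probe sets called higher at that threshold, and by the methods' t-test with adjustment it was 0. For none of the 5 did all treated mice exceed all *mdx* mice, against 9.29% of probe sets. All 5 differences were above 0, with that of *Bdh1* turning with single mice, from 0.15 for *Acss2* to 0.56 for *Acat1*. Over all tested probe sets the median was 0.02, and 47.2% lay below 0. The 5 signs share *mdx* mouse 4, the lowest mouse for all 5 genes. Without that mouse the differences were −0.081 for *Bdh1*, 0.05 for *Acss2*, 0.17 for *Acss1*, 0.31 for *Oxct1* and 0.41 for *Acat1*. With array weights, which count arrays with larger deviations less, *Oxct1* and *Acat1* passed, with limma's adjusted p of 0.0343 and 0.00627.

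Against C57, 2 of the 5 genes were lower in treated mice, *Bdh1* and *Acss1*, where 8.96% of all tested probe sets were called lower. None was higher at an adjusted p under 0.05, against 15.6% of probe sets, and none at an unadjusted p under 0.05. With array weights, however, *Oxct1* was higher (limma's adjusted p = 0.0253). Treated mice lay below every C57 mouse for *Bdh1*, *Acss1* and *Acss2*, against 14.1% of probe sets, but *Acss2*, 0.32 lower, had a limma adjusted p of 0.0948. *Oxct1* was 0.35 and *Acat1* 0.21 above C57, with limma's adjusted p of 0.24 and 0.483.

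**Figure D2:**
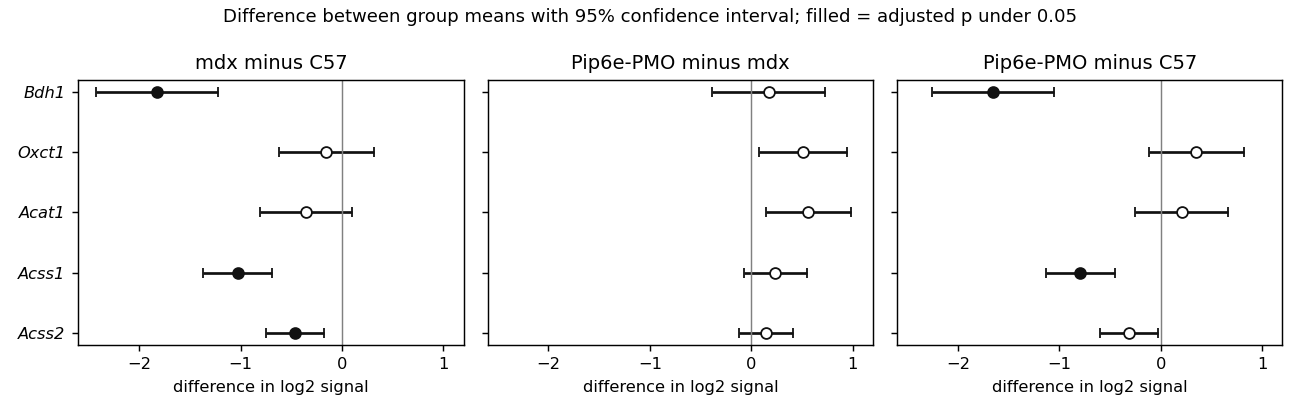
Differences between group means in log2 signal (points) with 95% confidence intervals (bars) for the 5 enzyme genes in the 3 comparisons; filled points have a limma adjusted p under 0.05 over all tested probe sets. *Bdh1* and *Acss1* are filled in *mdx* and in treated mice against C57, *Acss2* in *mdx* alone, and no point is filled for treated against *mdx*.

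The part of the *mdx* difference that was absent after treatment was expressed for the 3 genes that fell, as the treated difference from *mdx* in percent of the C57 difference from *mdx*. For *Bdh1* it was 8.09, 5.34, −16.0 and 39.9% in the 4 treated mice, with a mean of 9.32 ± 23.1% (SD, n = 4). For *Acss1* it was 49.8, −0.73, 9.96 and 33.3%, with a mean of 23.1 ± 22.8% (SD, n = 4). For *Acss2* it was 70.6, −9.16, 14.5 and 51.2%, with a mean of 31.8 ± 35.8% (SD, n = 4). Treated mice 1 and 4 gave the higher values for all 3 genes and treated mice 2 and 3 the lower ones, and for *Bdh1* and *Acss2* the SD exceeded the mean. With 1 mouse left out at a time the mean ran from −5.14, without *mdx* mouse 4, to 17.8%, without treated mouse 3, for *Bdh1*, from 14.2, without treated mouse 1, to 31.0%, without treated mouse 2, for *Acss1*, and from 13.6, without *mdx* mouse 4, to 45.4%, without treated mouse 2, for *Acss2*. For *Acss2* it was 18.9% without treated mouse 1. These percentages are descriptions, since none of the treated differences passed the test.

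Within each array, the log2 ratio of a pair of members shows whether they changed by unequal amounts, although the level of a ratio depends on the probes and has no meaning by itself. The ratio of *Acss1* to *Acss2* was −1.05, −0.58 and −0.53 in C57, −1.38, −1.49, −1.07 and −1.20 in *mdx*, and −1.10, −1.25, −1.25 and −1.18 in treated mice. Every dystrophic mouse was below the lowest C57 mouse, by as little as 0.02 in *mdx*. The mitochondrial gene thus lay further below C57 than the cytosolic one, with a difference of −0.56 in *mdx* and −0.47 in treated mice (two-sided exact permutation test, p = 0.0286 for each, the smallest that 3 against 4 mice allow, adjusted p = 0.0429 over 6 tests).

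The ratio of *Bdh1* to *Oxct1* was −2.0, −1.33 and −1.30 in C57, −3.71, −2.98, −2.80 and −3.36 in *mdx*, and −3.63, −3.43, −4.02 and −3.12 in treated mice. The C57 mice were well clear of all 8 others. *Bdh1* was therefore lower relative to the next enzyme of its pathway, with a difference of −1.67 in *mdx* and −2.01 in treated mice (two-sided exact permutation test, p = 0.0286 for each, adjusted p = 0.0429). For each ratio the *mdx* and treated comparisons share the same C57 mice, so they are not independent. The falls of *Bdh1* and *Acss1* were also known from the study beforehand. Treated and *mdx* mice gave no difference past the test in either ratio: 0.09 for *Acss1* to *Acss2* (exact permutation p = 0.429, adjusted 0.429) and −0.34 for *Bdh1* to *Oxct1* (exact permutation p = 0.257, adjusted 0.309). With 1 mouse left out at a time, each of the 4 differences from C57 kept its sign and none passed, with adjusted p from 0.0857 to 0.15 over 6 tests.

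**Figure D3:**
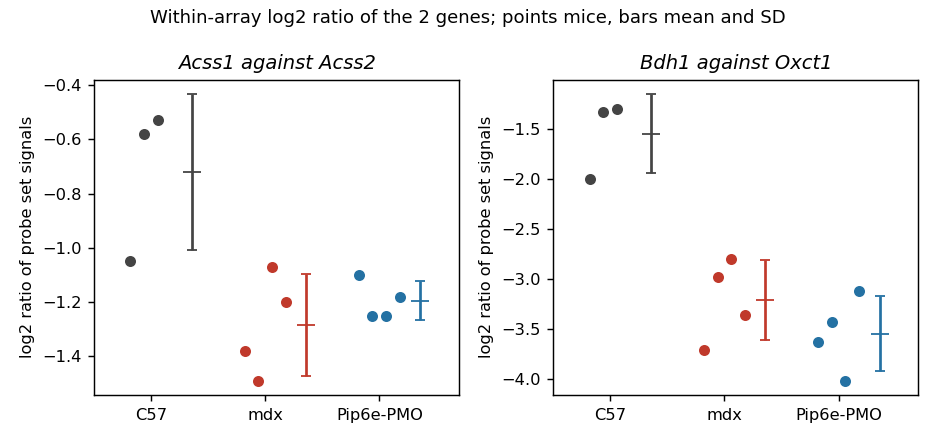
Log2 ratio of *Acss1* to *Acss2* (left) and of *Bdh1* to *Oxct1* (right) within the array of each mouse, with group mean and SD beside the points. In both panels the 8 dystrophic mice lie below the 3 C57 mice, narrowly on the left and by 0.80 or more on the right.

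One mouse was lowest throughout: *mdx* mouse 4 had the lowest log2 signal of the 11 mice for all 5 enzymes, which held for 11.1% of all tested probe sets. It was also lowest of the 11 for 14 of 19 fatty acid oxidation genes and 8 of 18 citrate cycle genes. Without it, *Bdh1* was 1.57 and *Acss1* 0.96 lower in *mdx* than in C57, with limma's adjusted p of 0.00174 and 0.00462. Among treated mice, mouse 2 was lowest for 4 of the 5 enzymes, *Bdh1* being the exception, against 36.7% of all tested probe sets. Its regenerating fibre markers summed to a signal of 4582, against 2479 to 2905 in the other treated mice, and its *Dmd* signal was the lowest of the treated mice. Values without treated mouse 2, or with array weights, thus give less part to a treated mouse picked out by its own measurements. For its treated sample T2, by number this mouse, the paper reports the lowest exon skipping by RT-qPCR and the lowest dystrophin by mass spectrometry. Western blot values did not correlate significantly with either. The paper also found the least restoration of mRNA in that sample, but from these same arrays, so this is not separate evidence. Whether the array of mouse 2 or its response set the values here was not tested.

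Over the 11 mice, Pearson's r was 0.91 for *Bdh1* with *Acss1* and 0.88 for *Oxct1* with *Acat1*, but 0.10 for *Bdh1* with *Oxct1* and 0.09 for *Oxct1* with *Acss1*. *Acss2* had r of 0.85 with *Acss1*, 0.84 with *Bdh1* and 0.61 with *Acat1*. After the group means were removed the order was different. The value was 0.84 for *Oxct1* with *Acat1* and 0.78 for *Acss2* with each of them, above the 0.58 of *Acss2* with *Bdh1* and the 0.57 with *Acss1*. *Bdh1* then had r of 0.56 with *Acss1*, 0.49 with *Oxct1* and 0.48 with *Acat1*. All these values describe 11 shared arrays, with the low values of *mdx* mouse 4 in them. Those from before the group means were removed also hold the group differences.

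Among 11841 genes with 1 probe set each, the nearest profile to *Bdh1* was that of *Slc15a5*, a solute carrier (r = 0.97), followed by *Rtn4ip1*, a mitochondrial protein (r = 0.96), and *Timp4*, an inhibitor of matrix metalloproteinases (r = 0.96). The nearest to *Acss1* were *4833439L19Rik* (r = 0.97), *Bmp6*, a growth factor of the TGF-beta family (r = 0.96), and *Cpt1b*, the muscle carnitine palmitoyltransferase that admits fatty acids to mitochondria (r = 0.96). For *Acss2* they were *Crebl2* (r = 0.93), the inositol pyrophosphate kinase *Ppip5k1* (r = 0.93) and the scaffold gene *Homer2* (r = 0.92). *Oxct1* was matched by *Bfar* (r = 0.96), *Trmt2b* (r = 0.94) and *Rnf125* (r = 0.93), and *Acat1* by *Ankrd28* (r = 0.97), *4933403F05Rik* (r = 0.97) and the adenosine kinase gene *Adk* (r = 0.96). Profiles were matched over the same mice with the group differences in them, so the neighbours share the group pattern by choice: in *mdx* against C57, *Slc15a5* differed by −2.17, *Timp4* by −0.94 and *Homer2* by −0.89 in log2 signal, values that are given with no test.

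Genes that move or make ketone bodies did not pass the test in *mdx*, where 12% of all tested probe sets were called in either direction. Of 13 on the array, 8 were tested, 0 were called by limma (2 at an unadjusted p under 0.05, 0 by the methods' t-test and 1, without treated mouse 2 or with array weights, at an adjusted p) and 4 lay on each side of 0, with a median difference of −0.02 beside −0.01 over all tested probe sets. After treatment 3 of the 8 rose: *Hmgcs1*, cytosolic HMG-CoA synthase of the cholesterol pathway, by 0.73 (limma's adjusted p = 0.00457), the monocarboxylate transporter gene *Slc16a1*, whose product carries ketone bodies and lactate, by 0.56 (limma's adjusted p = 0.0206), and *Slc16a6*, of the same transporter family, by 0.52 (limma's adjusted p = 0.0167). Left-out mice moved the count after treatment between 2 and 4, where 7.26% of all tested probe sets were called higher. *Hmgcs1* does not belong to ketone body synthesis in mitochondria.

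Of 24 tested genes that supply, spend or control acetyl-CoA, 2 rose and 2 fell in *mdx*, with a median of −0.18. Over all tested probe sets, 12% were called in this comparison in either direction. *Mlycd*, whose product breaks down malonyl-CoA, fell by 0.79 (limma's adjusted p = 0.00125), and *Acacb*, whose product makes it at the mitochondrial surface, fell by 0.69 (limma's adjusted p = 0.0063). *Pdk3*, a kinase that switches off pyruvate dehydrogenase, rose by 0.66 (limma's adjusted p = 0.0149), and *Acly*, which makes cytosolic acetyl-CoA from citrate, by 0.36 (limma's adjusted p = 0.0246). After treatment, where 7.26% of all tested probe sets were called higher, 8 of the 24 rose and 0 fell, with a median of 0.12. They include the pyruvate dehydrogenase subunit genes *Pdha1* (0.65) and *Pdhx* (0.65), the kinase gene *Pdk1* (0.65) and *Acacb* (0.44), with limma's adjusted p of 0.0247, 0.0272, 0.0382 and 0.0444. With single mice left out, the count in *mdx* ran from 2, without C57 mouse 3, to 7, without treated mouse 2, and the count after treatment from 0, without treated mouse 4, to 10, without treated mouse 2. The third acetyl-CoA synthetase gene of the family, *Acss3*, differed by 0.00 in *mdx* and by 0.14 after treatment, with limma's adjusted p of 0.992 and 0.342.

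All 19 fatty acid oxidation genes had a lower mean in *mdx* than in C57, against 52.2% of all tested probe sets, with a median of −0.31. The 19 signs share *mdx* mouse 4, which was lowest of its group for 18 of the genes, against 28.2% of all tested probe sets. How many signs hold without that mouse was not counted. By the test 5 of the 19 fell, against 4.96% of probe sets. Among those that passed, the largest falls were in *Slc25a20*, the carnitine-acylcarnitine carrier (0.65), *Cpt2*, the inner carnitine palmitoyltransferase (0.50), *Dci*, now named *Eci1*, an enoyl-CoA isomerase (0.38), and *Etfb*, an electron transfer flavoprotein subunit (0.30), with limma's adjusted p of 0.0101, 0.0321, 0.035 and 0.0377. After treatment 4 rose, against 7.26% of all tested probe sets, with a median of 0.20 over the 19. Among these were *Etfdh*, which passes electrons on to ubiquinone (0.79), *Acadm*, medium-chain acyl-CoA dehydrogenase (0.60), and *Etfa*, partner of *Etfb* (0.58), with limma's adjusted p of 0.0239, 0.0329 and 0.0402. Both counts moved with single mice, from 1 to 8 and from 0 to 10: without *mdx* mouse 4 they were 1 and 0, and without treated mouse 2 they were 8 and 10.

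Of 18 citrate cycle genes, 1 fell in *mdx*, a share close to the 4.96% of all tested probe sets called lower, and the median was −0.16. The gene was *Idh2*, the mitochondrial NADP-dependent isocitrate dehydrogenase, which fell by 0.60 (limma's adjusted p = 0.00813). After treatment 4 rose, against 7.26% of all tested probe sets, with a median of 0.14 over the 18. Among the 4 were *Idh3a*, a subunit of the NAD-dependent isocitrate dehydrogenase (0.61), *Fh1*, fumarate hydratase (0.55), and *Mdh1*, which is cytosolic malate dehydrogenase (0.54), with limma's adjusted p of 0.0214, 0.0339 and 0.0326. The count after treatment was 0 without any of *mdx* mice 3 and 4 or treated mice 1, 3 and 4, and at most 6, without treated mouse 2.

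Among 18 regulators of these pathways, 4 fell and 1 rose in *mdx*, where 4.96% of all tested probe sets were called lower and 12% in either direction. *Esrrb*, an orphan nuclear receptor, fell by 1.69 (limma's adjusted p = 5.7e-05), *Ppara*, the receptor that turns on fatty acid oxidation and ketone body genes in liver, by 0.70 (limma's adjusted p = 0.0186), and *Klf15*, a factor of fasting metabolism known to switch on *Acss1* in skeletal muscle, by 0.69 (limma's adjusted p = 0.000344). *Mlxipl*, a glucose-responsive factor, fell by 0.45 (limma's adjusted p = 0.0291), and *Srebf2*, the sterol-responsive factor, rose by 0.56 (limma's adjusted p = 0.0143). After treatment *Prkaa2*, a catalytic subunit of AMP-activated kinase, rose by 0.76, *Mlxipl* by 0.41 and the REV-ERB gene *Nr1d1* by 0.33, with limma's adjusted p of 0.00787, 0.0388 and 0.0336. For *Esrrb* and *Klf15* treated mice stayed below C57, by 1.49 and 0.72, with limma's adjusted p of 0.000183 and 0.00025. The count in *mdx* ran from 2, without C57 mouse 2, to 5 as single mice were left out, and that after treatment from 1 to 5. Over all tested probe sets, 7.26% were called higher after treatment.

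**Figure D4:**
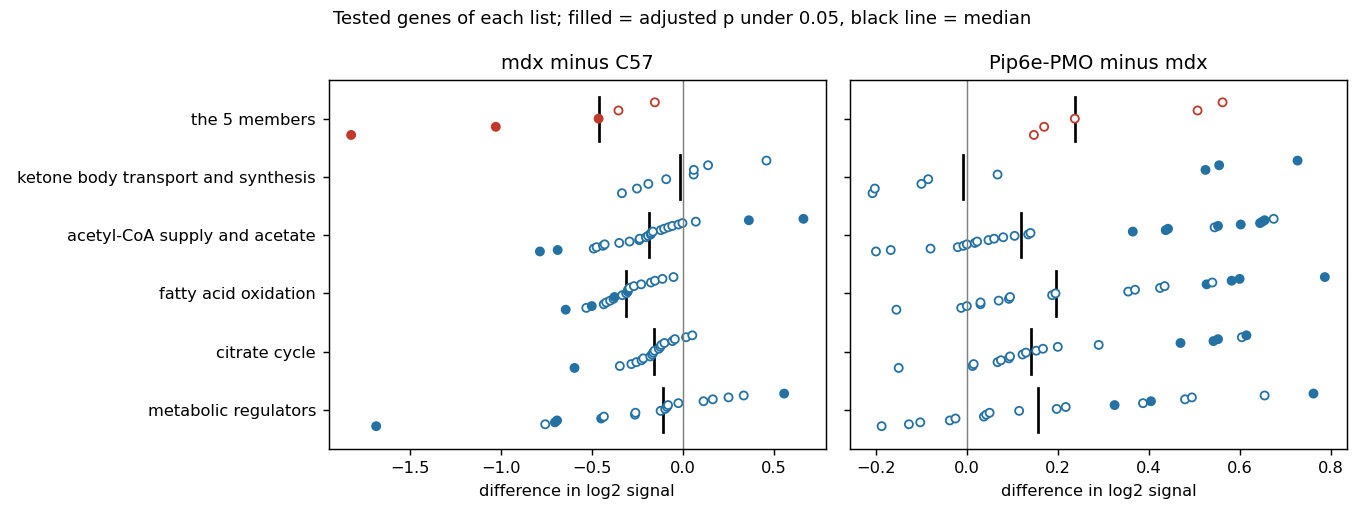
Differences in log2 signal for the 5 enzymes (red) and the tested genes of 5 related lists (blue), each circle a gene and each black line a list's median; filled circles have a limma adjusted p under 0.05. All 19 fatty acid oxidation genes lie below 0 in *mdx* against C57 (left), and the filled circles of treated against *mdx* (right) all lie above 0.

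Markers of other cells moved with the groups in which the enzymes fell. Of all tested probe sets, 12% were called in *mdx* in either direction and 11.1% after treatment. Of 12 macrophage markers, 11 rose in *mdx*, and their summed signal was 1582 to 2012 in C57, 4469 to 6856 in *mdx* without treatment and 3037 to 4571 with it. Of 8 regenerating fibre markers, 7 rose in *mdx*, with sums of 1785 to 2204, 4486 to 6501 and 2479 to 4582 in the same order. Fibroblast and matrix markers rose for 5 of 9 tested genes, with sums of 4878 to 6671, 7301 to 9077 and 6890 to 11486. Of 7 tested adipocyte markers none passed the test in *mdx*, also at an unadjusted p under 0.05, and 5 fell after treatment, with sums of 1419 to 1874, 1222 to 2194 and 1199 to 1366. *Myh7*, the defining slow fibre gene, was below the signal minimum, and of 7 other slow fibre markers 3 rose and 1 fell in *mdx*, with sums of 1677 to 1972, 1922 to 3154 and 1709 to 2378. The part of these cell types in the falls of *Bdh1*, *Acss1* and *Acss2* was not tested.

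Clock genes also separated C57 from all dystrophic mice, as did the 3 enzymes that fell. Both clock lists were included because they had moved with the groups in an earlier analysis of these arrays. Their counts and their separation of the groups are therefore not independent evidence. Of all tested probe sets, 12% were called in *mdx* and 11.1% after treatment. Of 8 genes with a day-phase peak, such as *Dbp* and *Per2*, 6 fell in *mdx*, and their summed signal was 3907 to 4317 in C57, 1220 to 1808 in *mdx* without treatment and 1397 to 2028 with it. Of 4 night-phase genes, *Arntl* and *Npas2* rose, with sums of 191 to 224, 471 to 579 and 442 to 642. After treatment 2 day-phase genes rose, *Per3* by 0.67 and *Nr1d2* by 0.84, with limma's adjusted p of 0.022 and 0.0186. The labels give no hour of tissue collection, and the part of the clock in the values of the enzymes was not tested.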

How the data were processed

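RNA of the TA was hybridized at 100 ng to Mouse Gene ST 1.1 plates. The authors processed the arrays in Affymetrix Expression Console by RMA-Sketch (background correction, quantile normalization and median polish) and deposited the values as intensity on the linear scale, with unpooled mice and no named genome build. Intensities were converted to log2, and limma 3.58.1 in R 4.3.3 fitted a mean per group to all 11 mice (lmFit, eBayes, two-sided), with Benjamini-Hochberg adjustment over the 14494 probe sets whose brightest group had a mean signal of 30 or more. The number of arrays, 3 or 4 per group, limits the precision. Each array is labelled as a separate mouse. The fit was tested on simulated data. Tables and plots used Python 3.11.15, pandas 2.3.3, NumPy 2.4.6 and matplotlib 3.10.9.

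Named beside the 5 members are, per pathway list, at most 4 genes called in *mdx* and 3 called after treatment with the largest differences, and the 3 nearest profiles per member. *Acss3* and genes named from the marker and clock lists fall outside this rule and were chosen after their values were seen. Members and lists were chosen with earlier results of these data known. Alternatives were the methods' t-test, other signal filters, only the 2 groups compared, array weights, a trended and robust prior, median centring, repeated quantile normalization, a replicate block and leaving out each mouse.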

Additional observations from a re-analysis of the deposited data

Results flagged for a closer look

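The log2 signal of *Acss2* in *mdx* mouse 4, 7.51, lay apart from the other 3 *mdx* mice, which were between 7.87 and 7.94. Its gap to the nearest of them, divided by the range of the group, exceeded Dixon's critical value of 0.829 for 4 samples. This was 1 of 30 groups of 4 so examined, and chance alone gives about 1 in 20. Without this mouse *Acss2* was 0.37 lower in *mdx* than in C57, with limma's adjusted p of 0.0836.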

How the results depend on the processing

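The falls of *Bdh1* and *Acss1* in *mdx* kept their direction under every alternative run, and that of *Acss1* its side of the threshold; *Bdh1* had an adjusted p of 0.0504 under the methods' t-test. Of the member differences over all alternatives, 292 kept direction and side, 7 passed anew, 12 were lost and 4 reversed. The cause of these shifts was not tested. Under the methods' t-test 1 member was called in *mdx*, and the counts were 2 and 0 for acetyl-CoA supply, 3 and 0 for fatty acid oxidation, 0 and 0 for the citrate cycle, 2 and 0 for regulators (*mdx*, then treated against *mdx*) and 0 for ketone body transport and synthesis in treated mice. *Acss2* in *mdx* was lost under that test (0.128) and without a signal filter (0.0512).

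With array weights 2 members were called in treated against *mdx* and 4 in treated against C57, where *Oxct1* (0.0253) and *Acss2* (0.0376) were added. The *mdx* counts then were 1 for ketone bodies, 8 for acetyl-CoA supply, 9 for fatty acid oxidation, 4 for the citrate cycle and 10 for regulators, and the treated counts 11 for fatty acid oxidation and 8 for the citrate cycle. *Bdh1* in treated against *mdx* was −0.037. Fits of only the 2 groups compared gave 1 for ketone bodies in *mdx* and, in treated mice, 3 for acetyl-CoA supply, 1 for fatty acid oxidation, 2 for the citrate cycle and 1 for regulators.

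No label states that mouse numbers pair the samples. Of 10 same-number pairs, correlations of deviations ran from −0.297 to 0.153 and 1 exceeded 0.1. Pairs of different number were not set beside them, so these values cannot decide whether the numbers mark a shared batch. A replicate block lost *Acss2* in *mdx* (0.096) and gave 1 for fatty acid oxidation and 3 for regulators in *mdx*, and 2 for acetyl-CoA supply, 1 for fatty acid oxidation, 0 for the citrate cycle and 1 for regulators in treated mice.

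Leaving out each mouse in turn, the members called ranged from 2 to 3 in *mdx*, from 0 to 2 in treated against *mdx* (2 without *mdx* mouse 1, when *Oxct1* had 0.0465 and *Acat1* 0.0494, and 1 without treated mouse 2) and stayed at 2 against C57. *Mdx* counts ranged from 0 to 1 for ketone bodies, 2 to 7 for acetyl-CoA supply, 1 to 8 for fatty acid oxidation, 1 to 2 for the citrate cycle and 2 to 5 for regulators. Treated counts ranged from 2 to 4, 0 to 10, 0 to 10, 0 to 6 and 1 to 5 in the same order. *Bdh1* in treated against *mdx* ran from −0.081 (without *mdx* mouse 4) to 0.32, being −0.016 without treated mouse 4, and *Oxct1* in *mdx* from −0.32 to 0.047 (without *mdx* mouse 4). The restored share of *Bdh1* ran from −5.14 to 17.8%, with −0.868% without treated mouse 4. The smallest adjusted p of the pair differences then was 0.0857, set by the adjustment where both groups were whole. A comparison that lost a mouse could not reach 0.05 by the exact test. These differences ran from −0.73 to −0.47 (*mdx*) and −0.64 to −0.38 (treated) for *Acss1* to *Acss2*, and from −1.90 to −1.50 and −2.23 to −1.85 for *Bdh1* to *Oxct1*.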
